A study of Rattus norvegicus with 5 samples.

Results

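The 9 genes described here encode antiviral effectors that interferon induces: Rsad2, Cmpk2, Mx1, Mx2, Ifit2, Ifit3, Ifi44, Ifi44l and Rtp4. They were read on one-colour Agilent arrays of BRL-3A cells, which derive from the liver of a Buffalo rat, in a study of Tmub1, a ubiquitin-like domain transmembrane protein. The genes were chosen by name with the measured signal differences between these same 5 arrays known, so their differences are a description and no test is given. Each had 1 probe among the 17996 that a RefSeq accession named, and probes of these genes under another identifier were not sought. Together they made up 9 of the 15161 genes, and 9 of the 30366 probes, that could be read.

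There were 5 groups with 1 array each. One group received a lentivirus labelled as Tmub1 overexpression and another a lentivirus labelled as Tmub1 knockdown. Each of these viruses had its own negative control virus, and the remaining group, normal BRL-3A cells, is listed without a virus. RNA was harvested 48 h after transduction, and 1 µg was labelled per array. The vector backbones, the promoter driving the insert, the knockdown sequence and the content of the control viruses are not stated in the labels, which also do not say whether each virus group was a mixed population or a clone. The line is labelled as hepatocyte cells. Of 10 hepatocyte markers 6 to 7 were well above background per array, where 66.9% to 86.5% of all probes were. Tat and Cps1 were below it on every array. Ahsg lay above the array's 75th percentile on every array but knockdown, and Tf on every array but knockdown and normal. Of the 9 stellate cell and fibroblast markers 8 to 9 were well above background on each array. The cell type was not tested.

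Levels are given as normalized log2 signal, where 0 is the 75th percentile of that array's probes. A difference of 1 is therefore a doubling, and the levels of different probes are not compared. The 75th percentile itself ranged 2.55-fold over the arrays. In signal units it was 1417 on knockdown and 1341 in normal cells, against 555 to 687 on the other arrays. Per array, 66.9% to 86.5% of probes were well above background. Tmub1 lay at -1.42 on the knockdown array and at 0.45 on its negative control, which is 3.65-fold lower. On the array labelled overexpression Tmub1 lay at 0.44 against 0.37 on its negative control, a difference of 0.07. The Tmub1 probe thus showed no raised level under the overexpression label, and the files used here do not say whether this probe can see the inserted copy. Directions drawn from that array belong to the array labelled overexpression. With 1 array per group there was no replicate error. The intervals given are 95% intervals of the scanner's own error for the spots and leave out variation between cultures, labellings and hybridisations.

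Interferons are secreted when a cell senses viral nucleic acid. They act on surface receptors that signal through the JAK kinases to a transcription factor complex that includes Irf9. This complex binds the interferon-stimulated response element (ISRE), a repeat of GAAA with a spacer, in the promoters of its target genes. IRF factors such as Irf7 bind related repeats. The proteins made from these targets block viral entry, RNA synthesis, translation or assembly, and in liver they form a main part of the innate response to virus.

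The promoter letters show what the genes share beyond the rule. RefSeq promoter windows on rat build GRCr8, from 250 bases before to 50 bases after a gene's start, were held for 6 of the 9 genes and not for Mx2, Ifit2 and Rtp4. The ISRE core (GAAA, any 2 bases, GAAA), searched on both strands, was present in 3.92% of all 33469 promoters of this length. It was present in 4 of the 6 windows, those of Rsad2, Ifit3, Ifi44 and Ifi44l. The related repeat GAAANGAAA, searched after the windows had been read, was present in 3.5% of all promoters and in the windows of Cmpk2 and Ifi44. The GAS motif TTCNNNGAA, the interferon gamma-activated site, was present in 8.87% of all promoters and here in Ifi44l alone. None of the 3 motifs was found in the Mx1 window.

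The matched sites are shown because they are the sequence feature that most of these windows hold in common. Each is a stretch of 30 bases on the gene's strand, 5′ to 3′, with the match in capitals. TTTC is the opposite-strand reading of GAAA.
Rsad2, chr6:48788248-48788277, minus strand: ctggttcaacTTTCATTTTCagaaaacaga
Cmpk2, distal site, chr6:48802754-48802783, plus strand: ctgccttcacTTTCGTTTCcaggggatcct
Cmpk2, proximal site, chr6:48802793-48802822, plus strand: atcaccgcggTTTCGTTTCcgaggcgtggc
Ifit3, chr1:241527272-241527301, plus strand: tttaagtctgTTTCAGTTTCtagtttccac
Ifi44, chr2:243303844-243303873, minus strand: cactgagTTTCAGTTTCATTTCccaggcag
Ifi44l, distal site, chr2:243328622-243328651, plus strand: tctgcttggcTTTCTTTTTCtcatcctgtt
Ifi44l, proximal site, chr2:243328654-243328683, plus strand: ttccagtgagGAAAATGAAAgtaaagggca

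The Rsad2, Ifit3, Ifi44 and Ifi44l sites hold the ISRE core with its spacer of 2 bases. In Ifi44 the core overlaps the repeat with a spacer of 1 base, and together they cover bases 26 to 12 before the start. The Ifit3 core lies 44 to 35 bases before the start, and the Rsad2 core 147 to 138 bases before it. Cmpk2 holds the single-spacer repeat at 86 to 78 and again at 47 to 39 bases before the start, and no ISRE core. Ifi44l holds a core on each strand, at 91 to 82 and at 59 to 50 bases before the start. The start used lay inside the outermost annotated end of the gene for 5 of the 6, by 29 bases for Ifi44 and up to 700 for Cmpk2, so some sites may be transcribed in other transcripts. A match is a description of letters and not of a bound site.

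**Figure D1:**
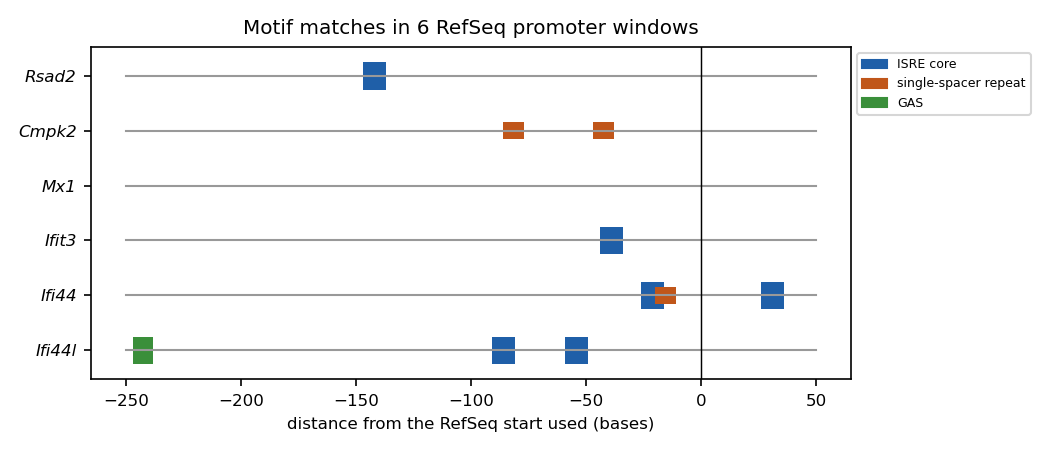
Motif matches in the 6 RefSeq promoter windows, drawn by distance in bases from the RefSeq start used (0). Blue boxes are the ISRE core, orange boxes the single-spacer repeat and green boxes the GAS motif on either strand; the Mx1 window has none, and Ifi44 has a further ISRE core after its start.

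All 9 genes had their highest level on the array labelled overexpression. The exception over the alternatives was Ifi44l with normexp background correction, which adds an offset and shrinks dim values: there the difference from the knockdown negative control was -0.08. In 7 of them the lowest level was in normal cells, and in Mx2 and Ifi44 it was on the knockdown array. The knockdown negative control stood in the second place for each of the 9. For Ifit3 its margin over knockdown, 0.03, was inside the scanner error. Knockdown lay 0.28 above it when the 75th percentile was taken over probes well above background on all arrays. For Rsad2, Cmpk2, Mx1, Ifi44l and Rtp4 the order continued with the overexpression negative control, then knockdown, then normal cells. Of the 36 steps between neighbours in these orders, 7 were inside the 95% interval of the scanner error.

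**Figure D2:**
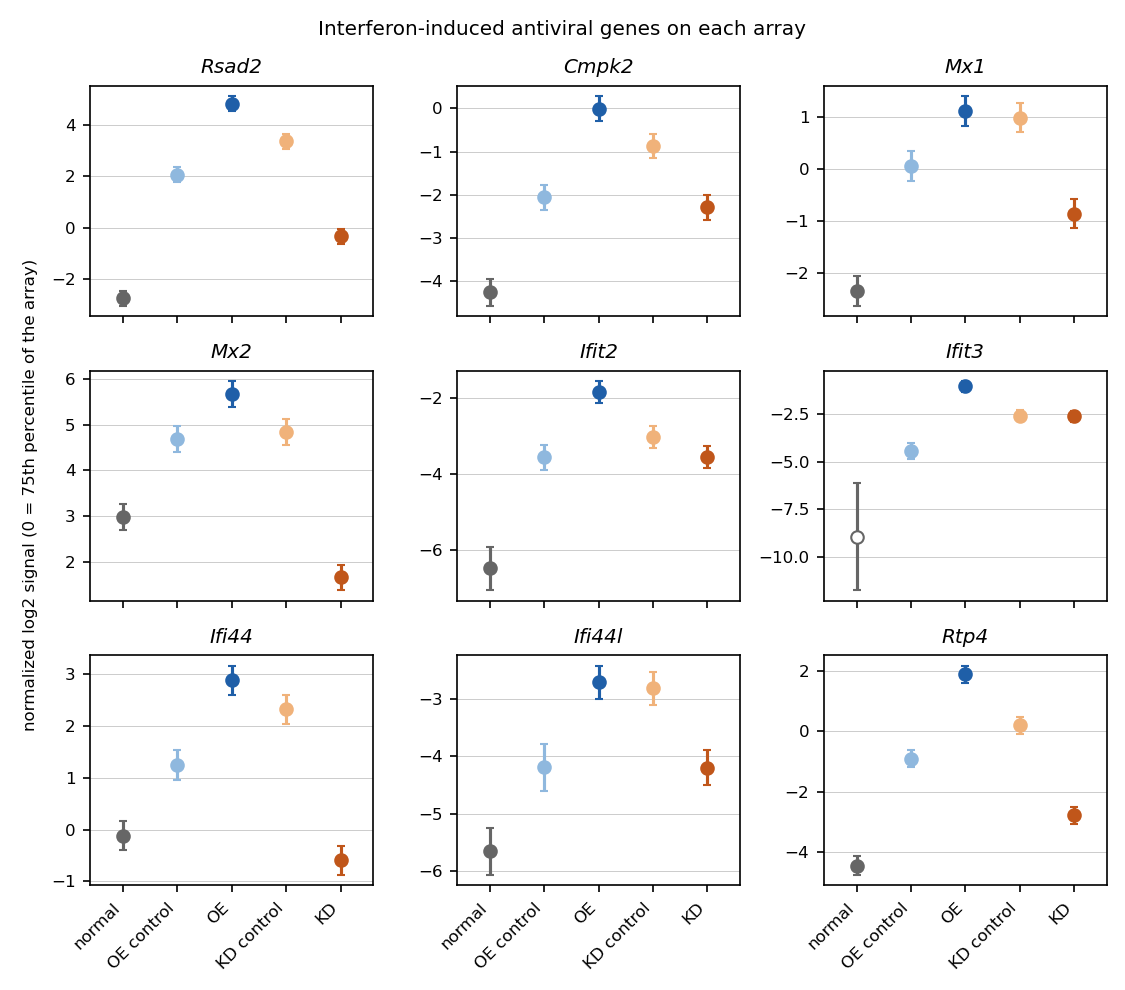
Normalized log2 signal of each gene on the 5 arrays, each panel on its own scale, with 95% scanner-error bars that hold no variation between cultures. In all 9 panels the array labelled overexpression (OE) is highest; the open Ifit3 symbol in normal cells is a value not well above background, and KD is knockdown.

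Rsad2 and Cmpk2 act on nucleotides. Rsad2 encodes viperin, a radical SAM enzyme that turns CTP into a chain terminator of viral RNA polymerases, and Cmpk2 encodes a mitochondrial kinase that supplies CTP precursors. Rsad2 lay at 4.83 on the array labelled overexpression, 3.37 on the knockdown negative control, 2.06 on the overexpression negative control, -0.35 on knockdown and -2.77 in normal cells. Its levels spanned 194-fold, and each of the 5 arrays was separated from its neighbours by more than the scanner error. Cmpk2 lay at -0.01, -0.88, -2.06, -2.30 and -4.27 in the same order of arrays, a span of 19.2-fold. The knockdown array and the overexpression negative control did not differ beyond the scanner error for Cmpk2. This probe was printed in 10 spots, whose SD was 0.04 to 0.21 per array on the log2 scale.

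Mx1 and Mx2 encode dynamin-like GTPases that trap incoming viral nucleocapsids, the rat Mx1 protein in the nucleus and Mx2 in the cytoplasm. Mx1 lay at 1.12 on the array labelled overexpression, 0.99 on the knockdown negative control, 0.06 on the overexpression negative control, -0.86 on knockdown and -2.35 in normal cells. The first pair of these overlapped within the scanner error. Mx2 lay at 5.67, 4.85, 4.68, 1.66 and 2.98 on the same arrays. Both negative controls overlapped within the scanner error for Mx2, and the knockdown array was the lowest of the 5, below normal cells. Mx1 and Mx2 are close relatives, and whether their probes also bind the other transcript was not tested.

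Ifit2 and Ifit3 encode tetratricopeptide proteins that work together in complexes restraining viral RNA translation. Ifit2 lay at -1.85 on the array labelled overexpression, -3.03 on the knockdown negative control, -3.57 on the overexpression negative control, -3.56 on knockdown and -6.48 in normal cells. Ifit3 lay at -1.02, -2.57, -4.42 and -2.60 on the 4 virus arrays in that order. In normal cells Ifit3 was measured at -8.94 and was not well above background, the only such value among the 45 readings of the 9 genes. For Ifit2 the knockdown array sat level with the overexpression negative control, and for Ifit3 with its own negative control.

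Ifi44 and Ifi44l are related interferon-induced proteins whose antiviral action is less well defined. Ifi44 lay at 2.88 on the array labelled overexpression, 2.32 on the knockdown negative control, 1.24 on the overexpression negative control, -0.59 on knockdown and -0.12 in normal cells. Knockdown was thus the lowest array for Ifi44, below normal cells. Ifi44l lay at -2.71, -2.82, -4.19, -4.20 and -5.66 on the same arrays. Its values formed 2 pairs that the scanner error did not separate, the array labelled overexpression with the knockdown negative control, and the overexpression negative control with knockdown.

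Rtp4 encodes a Golgi chaperone of G protein-coupled receptors that also restrains flavivirus replication. It lay at 1.90 on the array labelled overexpression, 0.21 on the knockdown negative control, -0.90 on the overexpression negative control, -2.79 on knockdown and -4.46 in normal cells. The 5 arrays were all separated by more than the scanner error, over a span of 82.2-fold. Its 10 spots had an SD of 0.05 to 0.18 per array on the log2 scale.

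The array labelled overexpression was compared with its own negative control. Ifit3 was 10.5-fold higher, a log2 difference of 3.40 (95% scanner interval 2.89 to 3.91). Rtp4 was 6.98-fold higher (log2 difference 2.80) and Rsad2 was 6.82-fold higher (2.77, interval 2.37 to 3.17). Cmpk2 was 4.15-fold higher, Ifit2 3.29-fold, Ifi44 3.10-fold and Ifi44l 2.79-fold. Mx1 at 2.07-fold and Mx2 at 1.99-fold did not reach the 2.5-fold threshold that the series' design text names. In all, 7 of 9 genes were past 2.5-fold higher and 0 lower, where 2.02% of all readable genes were higher and 1.12% lower. Of all calls in this comparison 64.3% were higher, and 49.4% with normexp, 53.9% with quantile normalization and 51.4% from the authors' deposited table. The genes' median difference was 1.72 and that of all genes 0.01. With normexp Ifit2 fell under the threshold at 0.84 and Ifi44l at 0.37.

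The other negative control gave smaller differences. Against it the array labelled overexpression was higher past 2.5-fold in 3 of 9 genes, where 1.92% of all genes were higher and 2.32% lower: Rtp4 at 1.70, Ifit3 at 1.55 and Rsad2 at 1.47 on the log2 scale. Ifit2 at 1.18, Cmpk2 at 0.87, Mx2 at 0.83 and Ifi44 at 0.56 did not reach the threshold. The Mx1 difference of 0.13 and the Ifi44l difference of 0.10 were inside the scanner error. Thus 3 genes passed against both negative controls, as did 0.403% of all genes. Ifit3 fell to 1.1 in this comparison with normexp, and Rsad2 to 1.27 with quantile normalization and 1.28 from the authors' deposited table, each under the threshold. Both comparisons share the array labelled overexpression.

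The knockdown array was then compared with its own negative control. Rsad2 was 13.1-fold lower, a log2 difference of -3.71 (95% scanner interval -4.11 to -3.31). Mx2 was 9.12-fold lower (-3.19), Rtp4 was 7.97-fold lower (-2.99) and Ifi44 was 7.52-fold lower (-2.91). Mx1 at -1.85, Cmpk2 at -1.42 and Ifi44l at -1.38 were lower by smaller steps. Ifit2 at -0.53 did not reach the threshold, and the Ifit3 difference of -0.03 (interval -0.43 to 0.38) was inside the scanner error. In all, 7 of 9 genes were past 2.5-fold lower and 0 higher, where 10.1% of all genes were lower and 8.52% higher. The genes' median difference was -1.85 and that of all genes -0.17. Among 7 readable hepatocyte markers in this comparison, Ahsg was 6.24-fold lower, Alb at least 4.66-fold lower and Cyp2e1 3.03-fold higher. Of 9 stellate cell and fibroblast markers, Pdgfrb was 4.19-fold lower and Vim 2.66-fold higher. Of 4 endothelial markers Tek was 3.22-fold higher, and of 8 leukocyte markers 0 were past the threshold. The part of these markers in the differences was not tested.

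That shift of all genes depended on the scaling. It was 0.09 when the 75th percentile was taken over probes well above background on all arrays, called the detected-probe percentile here. With that scaling Cmpk2 lay at -1.11 and Ifi44l at -1.07, both under the threshold, and Ifit3 at 0.28. The share of higher genes among all calls of this comparison was 45.7%, and it was 71.2% with that scaling and 34.0% with normexp. With normexp Cmpk2 at -1.20 and Ifi44l at -1.22 were again under the threshold. Before any scaling, the Cmpk2 signal was 288 on knockdown and 374 on its negative control, and that of Ifi44l 77 and 98. The unscaled signals of Ifit2 and Ifit3 were higher on knockdown, and those of the remaining genes lower.

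Against the other negative control, knockdown was lower past 2.5-fold in 4 of 9 genes, where 16.1% of all genes were lower. These were Mx2 at -3.02, Rsad2 at -2.41, Rtp4 at -1.89 and Ifi44 at -1.84, and the same 4 were lower past the threshold against its own negative control. Of all genes, 6.8% were lower past the threshold against both. Mx1 lay at -0.92 here, while Cmpk2 at -0.24, Ifi44l at -0.01 and Ifit2 at 0.01 were inside the scanner error. Ifit3 was on the other side, 1.82 higher on knockdown, where 14% of all genes were higher, but this value was 0.46 with normexp, under the threshold. The share of higher genes among all calls here was 46.6%, and 69.2% and 30% with the detected-probe percentile and with normexp.

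The negative controls themselves differed. The knockdown negative control lay above the overexpression negative control for 9 of 9 genes, with a median difference of 1.11 against 0.01 for all genes. Ifit3 at 1.85 and Ifi44l at 1.38 were past 2.5-fold, where 5.59% of all genes were higher and 3.39% lower. With normexp neither was, at 0.76 and 0.45, and with quantile normalization Ifi44l at 1.16 was under the threshold and Rsad2 at 1.44 past it. Of all calls here 62.3% were higher, and 46.2% with normexp. Rsad2 at 1.30, Cmpk2 at 1.18 and Rtp4 at 1.11 were close to the threshold, and Mx2 at 0.17 was inside the scanner error. The excess of the array labelled overexpression over its own negative control was larger than this gap for all 9 genes. Both differences start from the overexpression negative control, so this only restates that the array labelled overexpression lay above the knockdown negative control. For Mx1 at 0.13 and Ifi44l at 0.10 that margin was inside the scanner error. With normexp the excess of Ifi44l was 0.37 and the gap 0.45. The deficit of knockdown against its own negative control was larger than the gap for 7, and not for Ifit2 and Ifit3. In the same way this only restates that knockdown lay below the overexpression negative control. For 2 of the 7, Cmpk2 at -0.24 and Ifi44l at -0.01, that margin was inside the scanner error. With the detected-probe percentile the deficit was not larger for Cmpk2 and Ifi44l either. With normexp, quantile normalization, cyclic loess or the authors' table it was larger for Ifit2. These comparisons share the negative control arrays, so the sizes are set side by side without a test.

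**Figure D3:**
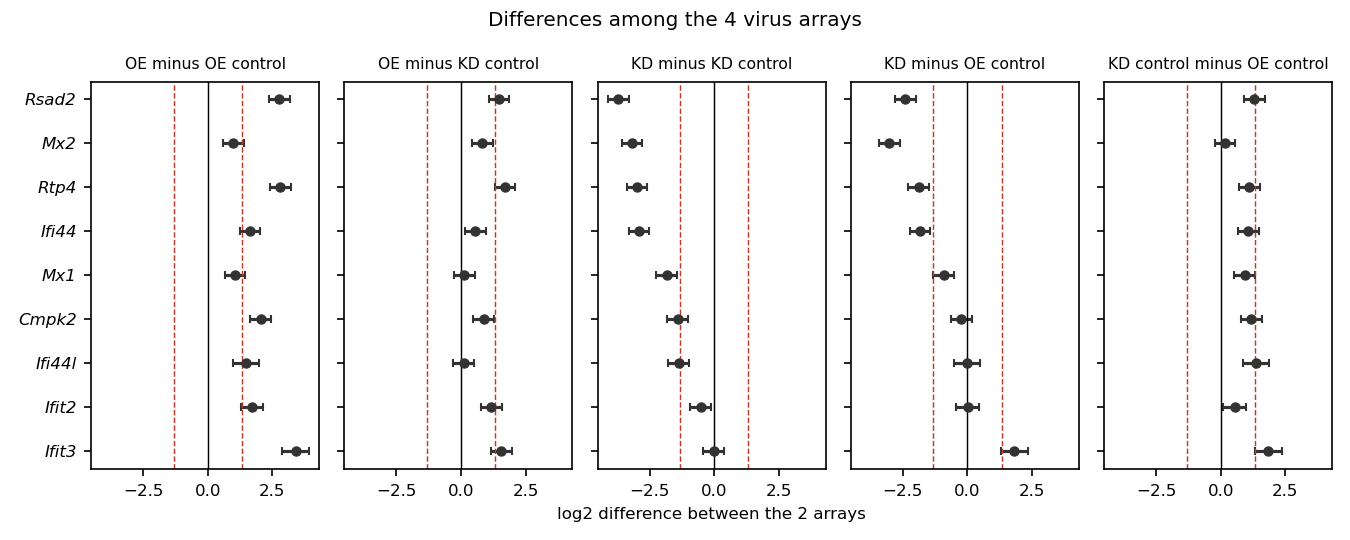
Log2 difference of each gene between the 4 virus arrays, for the 5 pairs named above the panels, with 95% scanner-error bars and dashed lines at 2.5-fold. OE is the array labelled overexpression and KD is knockdown; Rsad2, Mx2, Rtp4 and Ifi44 lie below the lower line against both negative controls on knockdown, while Ifit3 lies at -0.03 against its own.

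Normal cells had the lowest levels of most of these genes. The overexpression negative control was higher than normal cells past 2.5-fold in 9 of 9 genes, where 7.6% of all genes were higher and 11.4% lower. Rsad2 was higher by 4.83, Rtp4 by 3.56, Ifit2 by 2.91, Mx1 by 2.41, Cmpk2 by 2.21, Mx2 by 1.70, Ifi44l by 1.46 and Ifi44 by 1.36 on the log2 scale. The knockdown negative control was also higher in 9 of 9, where 7.26% of all genes were higher and 9.52% lower, from 1.87 for Mx2 to 6.13 for Rsad2. The array labelled overexpression was higher in 9 of 9, where 7.4% of all genes were higher and 10.3% lower, from 2.70 for Mx2 to 7.60 for Rsad2. For Ifit3, below background in normal cells, only bounds can be given: at least 7.06-fold on the overexpression negative control, 25.4-fold on the knockdown negative control and 74.4-fold on the array labelled overexpression. These bounds use the lowest signal well above background on the normal array. With normexp the 9 of 9 became 4 on the overexpression negative control, 7 on the knockdown negative control and 8 on the array labelled overexpression. With quantile normalization Mx2 at 1.28 and Ifi44 at 1.24 were under the threshold on the overexpression negative control.

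The knockdown array also stood above normal cells for 7 of 9 genes, where 11.4% of all genes were higher and 19.3% lower. Ifit3 was at least 24.9-fold higher. Ifit2 was higher by 2.92, Rsad2 by 2.42, Cmpk2 by 1.97, Rtp4 by 1.67, Mx1 by 1.49 and Ifi44l by 1.45. Mx2 lay at -1.32, just short of the threshold on the lower side, and Ifi44 at -0.47. The same 7 genes were past 2.5-fold above normal cells on all 4 virus arrays, as were 2.88% of all genes. With normexp only 1 gene, Rsad2, was past the threshold on knockdown, while Rtp4 lay at 0.43, Ifit2 at 0.24 and Ifi44l at -0.27.

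Several other features moved with the normal array. It was scanned on another day than the 4 virus arrays, so scan day and virus cannot be told apart in these comparisons. Leukocyte markers also differed: of 9 measured, 7 to 8 were well above background on the virus arrays and 5 on the normal array. The log2 of their summed level was 3.17 to 3.65 on the virus arrays and 0.94 on the normal array. Lyz2, a macrophage lysozyme, lay at 1.62 to 2.19 on the virus arrays and at -6.66 in normal cells. Cd3e, which marks T cells, was below background on every array. Among the virus arrays no leukocyte marker was past 2.5-fold between either virus and its own negative control. The part of these features in the difference from normal cells was not tested. In a bulk sample, more cells of a type and more RNA per cell cannot be told apart. The split of all calls also moved with the scaling: for the array labelled overexpression against normal cells, 41.8% of calls were higher, and 68.3% with quantile normalization, 74.8% with normexp and 27.3% with the detected-probe percentile. With quantile normalization the share rose from 37.2% to 57.3% for knockdown, from 40.0% to 69.2% for the overexpression negative control and from 43.3% to 70.0% for the knockdown negative control.

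**Figure D4:**
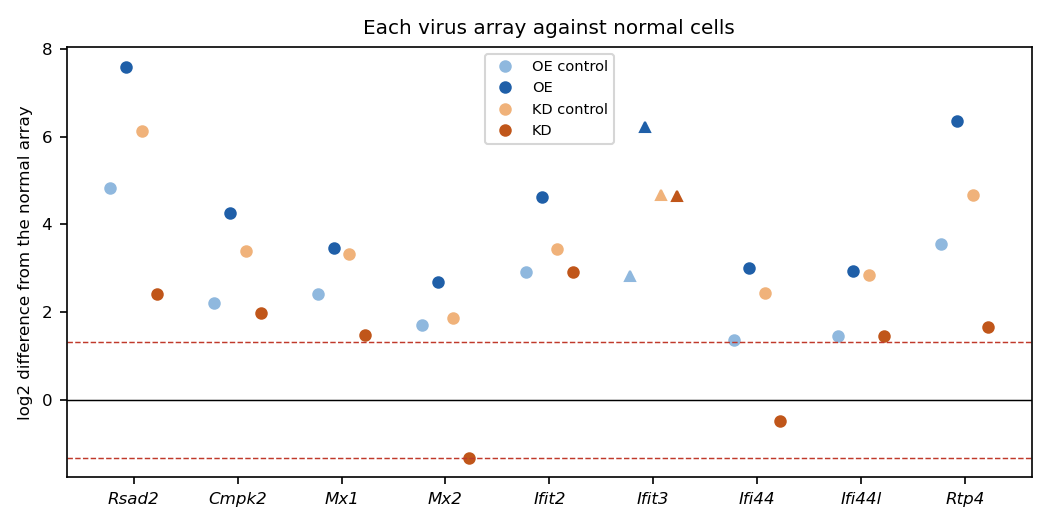
Log2 difference of each virus array from the normal array for each gene, with dashed lines at 2.5-fold and triangles for lower bounds (Ifit3). On the overexpression array (OE), the knockdown control and the overexpression control all 9 genes lie above the upper line; on knockdown (KD) Mx2 at -1.32 and Ifi44 at -0.47 do not.

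The rest of the pathway was read from lists of related genes. Of the ligands, 4 of 9 listed were measured, and none of the 2 readable in each virus's own comparison was past the threshold. Ifnb1, the first interferon made by most infected cells, lay at -5.37 on the array labelled overexpression and in normal cells and at -6.40 on knockdown, and was not well above background on either negative control. Of the receptors, 0 of 4 readable were past the threshold on the array labelled overexpression against its control. On knockdown 1 of 5 was lower, Il10rb, a subunit of the interferon lambda receptor, at 2.73-fold, where 10.1% of all genes were lower.

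Of the genes of the JAK-STAT signal, Stat2 was 2.58-fold lower on knockdown than on its negative control. Among 6 feedback inhibitors, Usp18, the protease that removes Isg15 and dampens receptor signalling, was 5.38-fold higher on the array labelled overexpression. On knockdown Usp18 was 5.21-fold lower and Socs1, which blocks JAK kinases, 3.96-fold lower, while Pias1, an inhibitor of the same signal, was 3.54-fold higher. Among 9 readable sensors and IRF factors, Irf7 was 7.66-fold higher and Dhx58, an RNA sensor, 2.57-fold higher on the array labelled overexpression. On knockdown the same pair were lower, by 6.22-fold and 2.64-fold, and the other readable members of this list were not past the threshold. Of all genes, 2.02% were higher and 1.12% lower on the array labelled overexpression against its own control. On knockdown against its own control 10.1% were lower and 8.52% higher.

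Some of the other interferon-induced genes differed in the same directions. Of 61 listed, 47 were measured. On the array labelled overexpression 8 of 42 readable genes were higher and 0 lower, with a median of 0.74. Of all genes, 2.02% were higher and 1.12% lower, with a median of 0.01. Isg15, a ubiquitin-like modifier, was 14.7-fold higher, Oasl2 7.91-fold, the chemokine Cxcl10 4.99-fold and Oasl at least 4.33-fold. On knockdown 16 of 43 were lower and 2 higher, with a median of -0.52, where 10.1% of all genes were lower and 8.52% higher. Isg15 was 12.5-fold lower, Oas1a, which makes the activator of RNase L, 6.19-fold, Phf11 4.81-fold and Ube2l6, the E2 enzyme for Isg15, 4.70-fold. The 2 higher genes were Zc3hav1, a binder of viral RNA, at 3.07-fold and Adar, an RNA editing enzyme, at 2.68-fold. Genes related to the 9 by family or function, but not listed as interferon effectors, showed 0 of 14 past the threshold on the array labelled overexpression. On knockdown 1 of 14 was past it, Ctps2 at 2.52-fold lower.

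The gap between the negative controls was shared by part of the listed pathway genes. On the knockdown negative control, 7 of 42 readable other interferon-induced genes were higher and 0 lower. Of all genes, 5.59% were higher and 3.39% lower. The list median was 0.67, against 0.01 for all genes. Of 9 readable sensors and IRF factors 2 were higher, but their median was -0.40, and that of the JAK-STAT genes was -0.26. Isg15 was 2.50 higher on the knockdown negative control than on the other, Oasl2 2.45, Usp18 2.22 and Irf7 2.17 on the log2 scale. Against the knockdown negative control, 1 of 42 other interferon-induced genes was higher on the array labelled overexpression, Isg15 at 2.61-fold, with a list median of 0.21. Of all genes, 1.92% were higher and 2.32% lower there. Cxcl10 at 1.24, Irf7 at 0.77, Oasl at 0.69, Oasl2 at 0.54, Usp18 at 0.21 and Dhx58 at -0.05 were not past the threshold there, and Socs1 was 2.64-fold lower. On knockdown against the overexpression negative control, 6 of 43 other interferon-induced genes were lower and 6 higher. Of all genes, 16.1% were lower and 14% higher there. The median of the 43 genes was -0.17, close to the -0.19 of all genes. Isg15 at -1.14, Phf11 at -1.07, Irf7 at -0.47, Oas1a at -0.37, Usp18 at -0.16, Socs1 at 0.16 and Dhx58 at 0.02 were not past the threshold in that comparison. Ube2l6 was 3.41-fold lower, Stat2 3.08-fold lower and Il10rb 4.79-fold lower there, and Adar was 6.47-fold higher.

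Genes with a profile like that of the 9 were sought among 10671 others, each well above background on every array. Each profile was centred on its own mean, and likeness was the root mean square (RMS) difference in log2 units from the mean profile of the 9. The nearest were Phf11, a PHD finger protein, at 0.28, and Car8, a carbonic anhydrase-related protein, at 0.35. Irf7 followed at 0.41, the ETS transcription factor Etv5 and the apolipoprotein L gene Apol9a at 0.44, and Usp18 at 0.48. Of the 9 themselves, Cmpk2 was nearest at 0.29 and Ifit3 farthest at 1.5. The median of the 9 was 0.65, and 13 other genes lay within it. Within the distance of Ifit3, the farthest of the 9, lay 2923 of the 10671 others. The likeness rests on 5 arrays, and with Ifit3 at its measured value in normal cells.

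**Figure D5:**
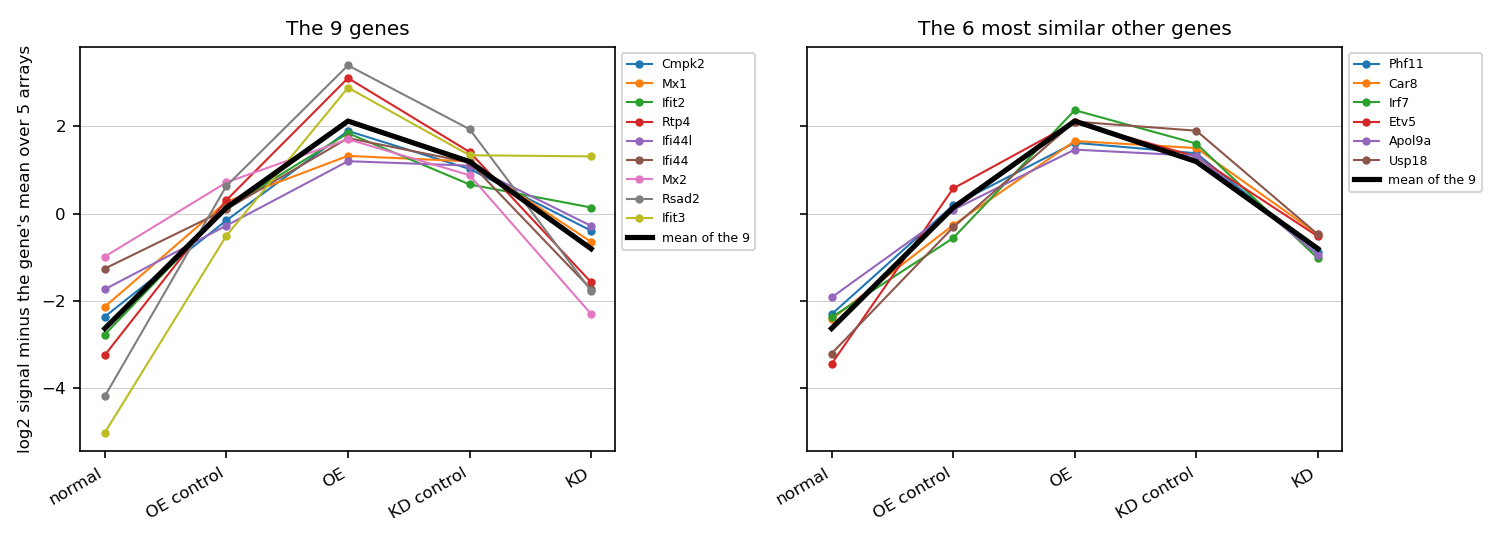
Log2 signal minus the gene's own mean over the 5 arrays, for the 9 genes (left) and the 6 most similar other genes (right), with the mean of the 9 as the thick black line in both panels. OE is the array labelled overexpression and KD is knockdown; the knockdown value of Ifit3 is the highest of the 9 and that of Mx2 the lowest.

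Several of the 9 genes are neighbours in the rat genome by RefSeq. Rsad2 and Cmpk2 on chromosome 6, Ifit2 and Ifit3 on chromosome 1, and Ifi44 and Ifi44l on chromosome 2 have 0 protein-coding genes between them, and Mx1 and Mx2 on chromosome 11 have 1, Fam3b. Their centred profiles differed by an RMS of 1.34, 1.30, 0.74 and 0.95. The closest of the 36 pairs among the 9 genes was Mx1 with Ifi44l at 0.35, which are not neighbours. Among the 36 pairs, from closest to farthest, the neighbours ranked 23 for Rsad2 and Cmpk2, 22 for Ifit2 and Ifit3, 13 for Mx1 and Mx2 and 10 for Ifi44 and Ifi44l.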

How the data were processed

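The deposited scanner files hold processed signals in intensity units, already background-subtracted by the scanner software and not scaled between arrays, per the file headers. The headers give Agilent Feature Extraction 11.0.1.1 as the reader, whereas version 9.1 stands in the submitters' processing notes. The authors' deposited table holds log2 values, 30423 per column with a median of 6.685 each; no source used here names how it was normalized. Control spots and spots flagged as outliers were left out, spots of a probe were averaged as log2, and each array's 75th percentile was subtracted. Probes were named through RefSeq accessions (17996 of 30366), and a gene was read from its brightest probe. The array design uses an older build, so positions are given for the RefSeq promoter sites alone. A call needed 2.5-fold with the brighter value well above background; a dim value below background was set to the lowest value above background if that was higher. With 1 array per group there is no p-value, and the number of arrays limits precision. The labels do not say whether the groups were separate cultures.

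The 9 genes, the lists of related genes and the markers were chosen with earlier results of these data known. Named were the 9, up to 4 genes per direction from each list by size, the 6 nearest profiles and Tmub1; 1 gene that this rule names is not reported here. The calling step was checked on simulated data, made from the normal array with added noise and known fold changes. The simulated arrays had the same scale and background floor, so the check does not cover differences in brightness or culture between arrays. Alternatives were other scalings, normexp with an offset of 50, other thresholds, the averaging of probes, filters and the authors' table; leaving out background-outlier spots was added after seeing the data. Python 3.11.15, pandas 2.3.3, numpy 2.4.6 and, for normexp, quantile and loess, limma 3.58.1 in R 4.3.3 were used.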

Additional observations from a re-analysis of the deposited data

How the results depend on the processing

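Every median kept its direction under the alternatives; the counts and medians that moved were these. At a 4-fold threshold, 4 genes remained past it for the array labelled overexpression against its own control and 0 against the other, 4 for knockdown against its own control, 2 against the other and 3 against normal cells, and 0 between the negative controls, which had 6 at 2-fold. With normexp, 1 gene was past the threshold for knockdown against normal cells, 4 for the overexpression control against normal cells and 0 between the negative controls. The medians against normal cells with normexp were 2.73 for the array labelled overexpression, 0.43 for knockdown, 1.25 for the overexpression control and 1.98 for the knockdown control. With quantile normalization they were 4.87, 2.27, 3.0 and 4.03, and from the authors' deposited log2 values they were 4.86, 2.26, 2.89 and 3.96. With only genes well above background on all arrays, which drops Ifit3, the knockdown medians were -2.38 and -1.38 against its own and the other control, and 1 gene was past the threshold between the controls. Of the single differences 635 stayed within the scanner error of their value, 84 moved and 1 that was past the threshold turned sign: Ifi44l on knockdown against normal cells, -0.27 with normexp. Of those not past the threshold, 5 differences, none larger than 0.24, changed sign, 8 times over the alternatives. The calls over all genes for the array labelled overexpression against its own control were 370, and 77 with normexp, 749 with no background filter and 234 with only genes well above background on all arrays; for knockdown against its own control they were 2361, and 1423 with normexp. Other counts that moved over 1.5 times with normexp were 512 to 174 for the array labelled overexpression against the other control, 3747 to 2440 for knockdown against the other control and 1060 to 385 between the controls. Against normal cells they were 2392 to 785 for the array labelled overexpression, 4224 to 2403 for knockdown, 2557 to 801 for the overexpression control and 2263 to 760 for the knockdown control. The 2557 became 1652 with quantile normalization, 1604 with the authors' values, 1500 with cyclic loess and 4022 with no background filter. The 2392 became 1583 with cyclic loess and 1558 with only genes well above background on every array, and the 512 became 964 with no background filter. At 2-fold and 4-fold the 370 became 782 and 87, and the 2361 became 4026 and 683. The cause of these shifts was not tested. No paired analysis was possible because each group has 1 array. Dim genes are limited by signal over background: Ifit3 in normal cells has a bound only.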
